A study of Mus musculus with 2 samples.

Results

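The 9 genes described here, Adgre1, Cd68, Marco, Mrc1, Timd4, Clec4f, Vsig4, Cd5l and Spic, are used as markers of the macrophages of the mouse fetal liver. They were chosen by name as a marker set, and all 9 were found among the 43346 mouse genes of the deposited tables. The samples are embryonic livers of the mouse strain C57BL/6J, taken at day 14, and the labels name no treatment and no genetic change. Each library was made from pooled male and female littermates, as stranded paired reads of polyadenylated RNA longer than the size limit of the preparation, with spike-in RNAs added. The series holds 1 group of 2 libraries, labelled biological replicates 2 and 1, so no comparison with a second condition or stage can be made. Both carry the same donor entry, and the labels do not tell whether 1 litter or several gave the pools. P-values then compare only these libraries, whose differences may be technical, and those of the main test allow for counting error alone.

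Macrophages enter the fetal liver from the yolk sac and from fetal monocytes, and some of them become the Kupffer cells of the adult organ. In the fetal liver they stand at the centre of erythroblastic islands, where maturing red cell precursors attach to them, and they engulf the nuclei that erythroblasts expel and recycle the iron of worn red cells. The genes of the set cover identity markers, receptors that bind particles or dying cells, a secreted protein and a transcription factor. The tissue was sequenced whole. In such a sample fewer macrophages and less RNA per macrophage cannot be told apart.

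The expected counts, which are estimated numbers of fragments per gene, summed to 149348514 on mouse genes in replicate 2 and 97174777 in replicate 1. The 9 genes held 43419 of these counts in replicate 2 and 24010 in replicate 1, which is 0.0291% and 0.0247% of them. Levels are given as TPM, the abundance of a gene's transcripts per length within a library, which can be compared between genes. The defining genes of the hepatocytes and of the red cell lineage were present as the tissue label states, with medians of 1207 TPM in replicate 2, against 1036 TPM in replicate 1 for 10 fetal hepatocyte genes, and of 239 and 213 TPM for 10 erythroid genes.

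Cd5l and Marco were the most abundant of the 9 genes, and Vsig4 was detected at a low level only. Of the 9 genes, 8 reached 1 TPM or more in both libraries, which 50.6% of 21474 protein-coding genes did. The median over the 9 genes was 6.00 TPM in replicate 2 and 5.00 TPM in replicate 1, where all protein-coding genes had medians of 1.20 and 1.17 TPM. Together the 9 genes summed to 125 TPM in replicate 2, against 102 TPM in replicate 1. Cd5l made up 46.9% of that sum in replicate 2 and 42.3% in replicate 1, and Marco 21.1% and 27.8%, so that most of the macrophage signal of the set came from this pair.

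**Figure D1:**
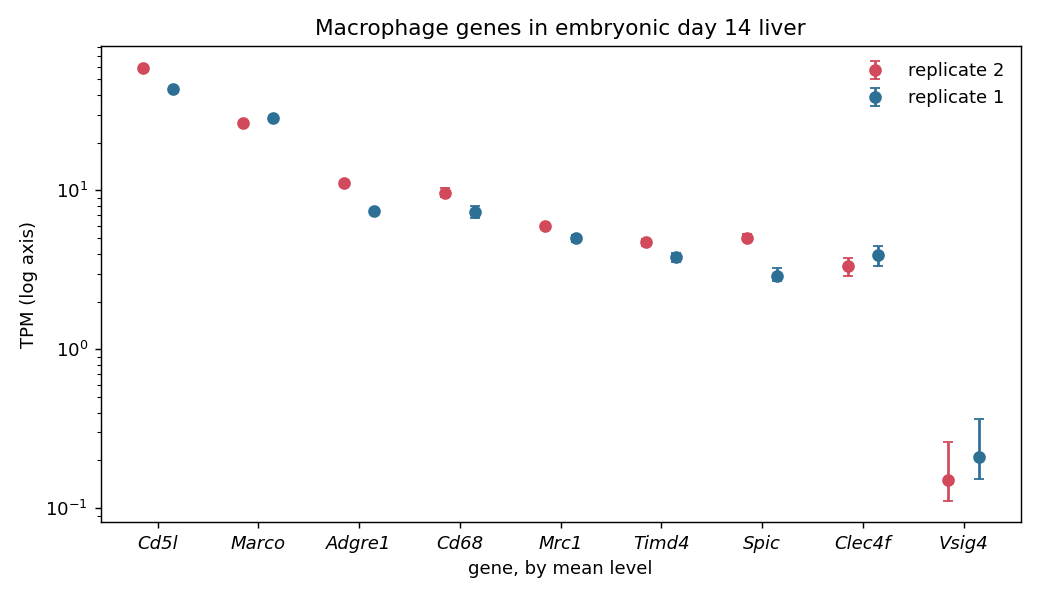
Level of each of the 9 macrophage genes in TPM (log axis) in replicate 2 (red, left) and replicate 1 (blue, right), with bars for the deposited credibility interval of each value. Cd5l and Marco lie above 20 TPM in both libraries, 6 genes lie between 2.88 and 11.2 TPM, and Vsig4 lies at 0.15 and 0.21 TPM.

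Among the identity markers, Adgre1 encodes the adhesion receptor on which the classical antibody against mouse macrophages was raised. Adgre1 (chromosome 17, positions 57358691 to 57483527 of GRCm38, plus strand) had 11.2 TPM in replicate 2, against 7.43 TPM in replicate 1, a mean of 9.30 ± 2.64 TPM (SD, n = 2). Cd68 encodes macrosialin, a glycoprotein of late endosomes and lysosomes. Cd68 (chromosome 11, positions 69664213 to 69666153, minus strand) had 9.68 TPM in replicate 2, against 7.35 TPM in replicate 1, a mean of 8.52 ± 1.65 TPM. Adgre1 stood above Cd68 in both libraries, with nearly equal values in replicate 1, and they rank at 5374 and 5668 among the protein-coding genes.

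The receptors for uptake spanned a wide range of levels. Marco encodes a scavenger receptor with a collagen-like stalk that binds bacteria and particles. Marco (chromosome 1, positions 120474538 to 120505024, minus strand) had 26.4 TPM in replicate 2, against 28.5 TPM in replicate 1, a mean of 27.5 ± 1.46 TPM, with 7970 and 5979 counts, and was the highest receptor in both libraries. Mrc1 encodes the mannose receptor, an endocytic lectin that sinusoidal endothelium carries as well. Mrc1 (chromosome 2, positions 14229392 to 14332057, plus strand) had 6.00 TPM in replicate 2, against 5.00 TPM in replicate 1, a mean of 5.50 ± 0.707 TPM.

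Timd4 encodes a receptor for phosphatidylserine, the lipid that dying cells and expelled nuclei expose, and is used as a marker of resident macrophages of embryonic origin. Timd4 (chromosome 11, positions 46810800 to 46844332, plus strand) had 4.72 TPM in replicate 2, against 3.79 TPM in replicate 1, a mean of 4.26 ± 0.658 TPM. Clec4f encodes a C-type lectin that in the mouse is used as a marker of Kupffer cells. Clec4f (chromosome 6, positions 83644542 to 83656187, minus strand) had 3.35 TPM in replicate 2, against 3.92 TPM in replicate 1, a mean of 3.64 ± 0.403 TPM. Timd4 stood above Clec4f in replicate 2 and below it in replicate 1, and both changed places with Spic.

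Vsig4 encodes a complement receptor that in adult mice marks Kupffer cells and other resident macrophages. Vsig4 (chromosome X, positions 96247203 to 96293438, minus strand) had 0.15 TPM in replicate 2, against 0.21 TPM in replicate 1, a mean of 0.180 ± 0.0424 TPM, from 32 and 31 counts. The value that 3 counts, the upper limit for a count of 0, would have given is 0.0141 TPM in replicate 2, against 0.0203 TPM in replicate 1, so the gene was detected in both. Vsig4 ranked at 13261 of the protein-coding genes and was the only one of the 9 below 1 TPM. By mean level Cd5l stood 283-fold above it.

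Cd5l encodes a secreted scavenger protein that circulates with IgM and is made mainly by tissue macrophages. Cd5l (chromosome 3, positions 87357881 to 87371073, plus strand) had 58.7 TPM in replicate 2, against 43.3 TPM in replicate 1, a mean of 51.0 ± 10.8 TPM, and was the highest of the 9 genes in both libraries. It ranked at 1267 of the protein-coding genes, and Marco followed at 2323. Spic encodes an Ets family transcription factor that red pulp macrophages of the spleen need and that heme induces. Spic (chromosome 10, positions 88674772 to 88685015, minus strand) had 5.02 TPM in replicate 2, against 2.88 TPM in replicate 1, a mean of 3.95 ± 1.51 TPM, and its libraries stood further apart than those of any other member, at 1.74-fold.

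The order of the levels was Cd5l, Marco, Adgre1, Cd68, Mrc1, Timd4, Spic, Clec4f and Vsig4. The neighbours whose library values overlapped were Adgre1 with Cd68, Timd4 with Spic and Spic with Clec4f. Within each library Adgre1 stood above Cd68, while the order within the other two pairs differed between the libraries. At the other 5 steps in the order the library values did not overlap. No gene was searched for a pattern like that of the set, since 2 libraries of 1 group define none.

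The sequences before the transcription starts of Cd5l and Marco, the highest members, and of Vsig4, the lowest, are shown because these genes mark the ends of the range of levels. They hold the 250 bases before the start in the RefSeq promoter table (GRCm38.p6), read 5′ to 3′ on the strand of the gene. Capitals mark GAGGAA or its reverse complement TTCCTC, the core bound by PU.1 and related Ets factors such as Spi-C, searched on both strands. The windows are chr3:87357631-87357880 (plus strand) for Cd5l, chr1:120505025-120505274 (minus strand) for Marco and chrX:96293439-96293688 (minus strand) for Vsig4.

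Cd5l: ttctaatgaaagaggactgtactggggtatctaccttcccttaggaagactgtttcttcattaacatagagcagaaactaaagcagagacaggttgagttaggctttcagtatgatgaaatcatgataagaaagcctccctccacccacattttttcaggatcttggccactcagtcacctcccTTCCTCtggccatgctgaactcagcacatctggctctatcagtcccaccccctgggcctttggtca

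Marco: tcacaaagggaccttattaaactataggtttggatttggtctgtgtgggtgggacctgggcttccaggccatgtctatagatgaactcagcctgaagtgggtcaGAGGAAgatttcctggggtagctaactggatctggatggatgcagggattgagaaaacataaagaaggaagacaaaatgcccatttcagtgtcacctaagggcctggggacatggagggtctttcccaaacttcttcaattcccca

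Vsig4: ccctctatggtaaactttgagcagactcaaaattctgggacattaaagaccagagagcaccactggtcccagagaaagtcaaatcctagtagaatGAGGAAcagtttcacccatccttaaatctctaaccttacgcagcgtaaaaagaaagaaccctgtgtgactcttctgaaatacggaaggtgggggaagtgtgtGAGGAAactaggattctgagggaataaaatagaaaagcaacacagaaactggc

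A window was found for 8 of the 9 genes, all but Adgre1, and 5 of the 8 held the core at least once. Of all 32851 windows of the same length in the table, 23.3% held it. Mrc1 held 3 copies, Vsig4 2 copies, and Cd5l, Marco and Cd68 1 copy each, while the windows of Clec4f, Timd4 and Spic held none. The copy in Cd5l began 66 bases before the start, that in Marco 146 bases before it, and those in Vsig4 155 and 53 bases before it. The highest and the lowest member both held the core, and a match in these letters says nothing of binding, which was not measured.

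The estimated transcript levels showed one dominant coding form for most genes and a non-coding part for a few. Cd5l and Timd4 had a single transcript in the tables. The highest transcript held 98.4% of the TPM of Marco in replicate 2 and 99.0% in replicate 1, 95.52% and 95.02% for Adgre1, 91.0% and 91.0% for Spic, and all of it for Vsig4. By mean share the non-coding transcripts were estimated highest in Clec4f, Mrc1 and Cd68. These splits are the authors' estimates, and for Clec4f and Cd68 the spliced reads gave a lower share or none.

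For Clec4f, a processed transcript of 606 bases took 40.7% of the TPM in replicate 2 and 41.2% in replicate 1. It rested on 94.6 and 77.9 expected counts, which is 10.6% and 10.8% of the counts of the gene, since short transcripts gain in TPM. In the junction list on the older mm9 assembly, the 1 intron that sets this transcript apart had 0 reads, which allows up to 3, against 85 to 250 reads on the 6 introns of the coding transcript. The estimate for the coding transcript alone, 1.98 TPM in replicate 2, against 2.30 TPM in replicate 1, rests on that split.

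For Mrc1, a transcript annotated as a retained intron took 27.3% of the TPM in replicate 2 and 37.4% in replicate 1, and 11.9% and 17.7% of the counts. The coding transcript alone was estimated at 4.37 TPM in replicate 2, against 3.13 TPM in replicate 1, a mean of 3.75 ± 0.877 TPM. For Cd68, a processed transcript of 612 bases took 8.78% of the TPM in replicate 2 and 20.95% in replicate 1, from 60.0 and 75.2 expected counts with posterior SDs of 23.0 and 15.1. With coding transcripts alone, chosen as a measure after the transcript tables were seen, Timd4 stood above Mrc1, and the order was otherwise the same.

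**Figure D2:**
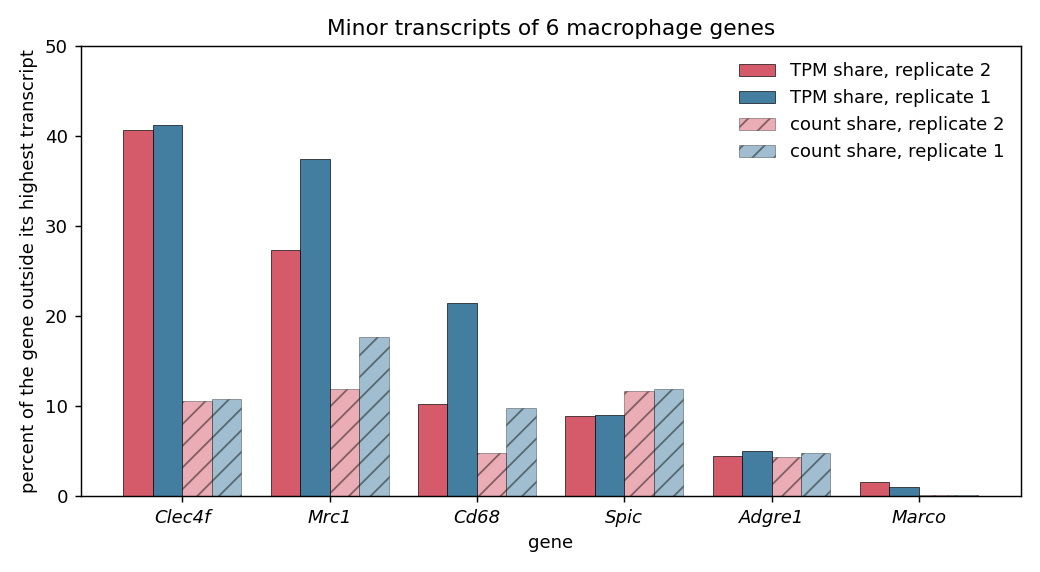
Percent of each gene that lay outside its highest transcript, for the 6 macrophage genes with more than 1 transcript above 0, as a share of TPM (solid bars) and of expected counts (hatched bars) in replicate 2 (red) and replicate 1 (blue). For Clec4f the TPM share is 40.7% and 41.2% while the count share is 10.6% and 10.8%.

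Spliced reads gave a view of the same genes that does not depend on transcript length. The authors' list on mm9 gives reads over each junction in columns R1 and R2, which cannot be tied to replicates 1 and 2 of the labels, and their sum is used. All 101 annotated introns of the main transcripts of the 9 genes carried reads in both columns, 58007 in all. The mean per intron was 2603 reads for Cd5l, 1526 for Marco, 446 for Adgre1, 349 for Cd68, 248 for Timd4, 230 for Spic, 187 for Mrc1, 141 for Clec4f and 8.83 for Vsig4. This order is that of the coding transcripts, except that Spic stood above Mrc1. Vsig4 had 6 to 12 reads on each of its 6 introns, so its few counts were spread over the whole spliced transcript.

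**Figure D3:**
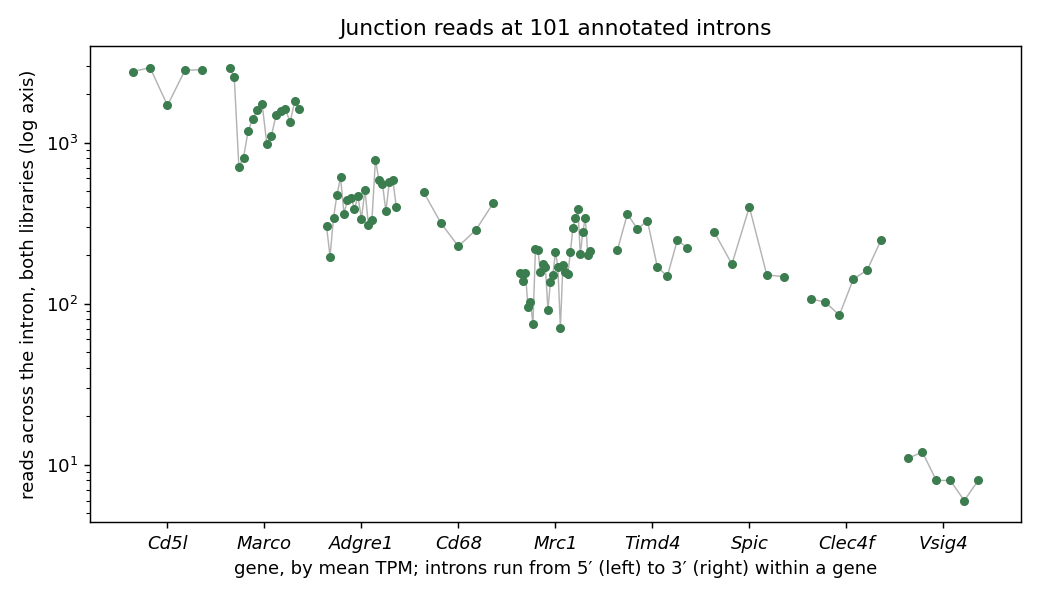
Reads across each annotated intron (log axis, both libraries together) of the main transcript of the 9 macrophage genes, with the introns of a gene from 5′ at the left to 3′ at the right. Vsig4 has 6 to 12 reads at each intron, and the first 2 introns of Marco stand above its others.

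Within Marco the reads were uneven along the gene. Its first 2 introns carried 2901 and 2568 reads, and the next 2 carried 708 and 807 reads. Over introns 3 to 16 the median was 1442 reads, so the first 2 lay 1.90 times above it. Clec4f was uneven in the other direction, with 107 reads on its first intron and 250 on its last.

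Whole coding exons of the main transcript were skipped in 10 reads or more in 4 genes, Timd4, Adgre1, Cd68 and Marco, each time as the minor form. In Timd4, 23 reads joined exon 5 to exon 7, a junction that the annotation on mm9 does not list (intron chr11:46633547-46652762), while 169 and 148 reads joined exon 6 to its neighbours. By the mean of those, exon 6 was left out in 12.7% of the reads (95% Wilson interval 8.62% to 18.3%, counting error only), with 9.92% in column R1 and 14.0% in column R2. Exon 6 has 47 bases, which is not a multiple of 3, so the join shifts the reading frame.

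Timd4 exon 6 with its flanks, from the GENCODE M21 transcript, is shown with the exon in capitals. The join without it is shown with the first bases of exon 7 in capitals.

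With exon 6: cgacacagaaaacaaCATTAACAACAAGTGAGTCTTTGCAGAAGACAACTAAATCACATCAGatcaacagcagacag

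Without exon 6: cgacacagaaaacaaATCAACAGCAGACAG

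In Adgre1, 26 reads skipped exons 3 to 5, as an annotated junction does (intron chr17:57501158-57546256 on mm9), against 196 reads into exon 3 and 608 reads out of exon 5. By the mean of those, that is 6.07% of the reads (95% Wilson interval 4.18% to 8.75%), with 5.99% in column R1 and 6.11% in column R2. The interval leaves out the wide difference between the flanking counts of 196 and 608 reads. The skipped 423 bases are a multiple of 3, which keeps the reading frame. The extracellular part of the receptor carries a row of EGF-like modules. No transcript with this junction stood in the mm10 transcript tables, so the TPM shares of Adgre1 above do not include it. The joins into exon 3 and past it are shown with the bases after the join in capitals.

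Into exon 3: gacaaacacttggtgGTGTGAATGAGTGTC

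Past exons 3 to 5: gacaaacacttggtgATGAAGATGAATGTG

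In Cd68, 14 reads skipped exon 2 (intron chr11:69478869-69479521 on mm9), against 494 and 316 reads on the introns that flank it, which is 3.34% (95% Wilson interval 2.00% to 5.53%). Column R1 held 10 of the 14 reads and column R2 4 of them, which gives 7.22% and 1.43%. This junction belongs to the 612-base processed transcript, whose estimated share of the TPM, 14.9% on average, was above this share of reads and also differed between the replicates. Exon 2 has 434 bases and carries part of the coding sequence, and its loss also shifts the frame.

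Into exon 2: taggaccgcttatagCCCAAGGAACAGAGG

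Past exon 2: taggaccgcttatagGCTTGGGGCATATCT

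In Marco, 14 reads skipped exon 3, a junction that the mm9 annotation does not list, against 2568 and 708 reads on the flanking introns. That is 0.847% (95% Wilson interval 0.505% to 1.42%), and the 219 bases of the exon are a multiple of 3. Here too the interval leaves out the difference between the flanking counts.

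Junctions outside the annotation were otherwise rare in the set. They took 4.99% of the junction reads of Timd4, 1.96% of Spic and 1.05% or less of each of the other 7 genes. In Timd4 the most frequent was an end of intron 2 that lay 1 base before the annotated one, with 40 reads against 361 reads at the annotated end. That junction lacked the list's flag for canonical splice sites, so it may not be a true intron end. Reads on neighbouring genes limit the contig list for Cd68, which lies with Eif4a1 and Senp3 in 1 same-strand contig of 20125 bases on mm9, so the authors' contig level cannot be given to Cd68 alone.

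Between the libraries, 6 of the 9 genes were higher in replicate 2, 2 were lower in replicate 2 and 1 did not pass the test. Expected counts were rounded, scaled between the libraries by TMM and put to a two-sided exact binomial test, with Benjamini-Hochberg adjustment over the 18572 genes that had 10 counts or more in sum. It takes counting error alone and compares these libraries, not conditions. At an adjusted p of 0.05 it called 40.3% of all genes tested, 19.9% as higher in replicate 2 and 20.4% as lower in replicate 2, so calls were common throughout the tables. All log2 ratios below are replicate 2 over replicate 1 on that scale, on which the median gene lay at -0.002. On TPM as deposited, genes with at least 100 counts had a median log2 ratio of 0.15.

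Spic had the highest ratio, with 1434 counts in replicate 2 and 570 in replicate 1, a log2 ratio of 0.66 (95% interval 0.51 to 0.80). Adgre1 followed with 6055 and 2783 counts, at 0.45 (0.38 to 0.51). Cd68 had 1656 and 804 counts, at 0.37 (0.24 to 0.49). The transcription factor and both identity markers were higher in replicate 2 by more than counting error.

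Cd5l had 19134 counts in replicate 2 and 9773 in replicate 1, a log2 ratio of 0.29 (0.26 to 0.33). Mrc1 had 4586 and 2430 counts, at 0.24 (0.17 to 0.31), and Timd4 had 1656 and 919 counts, at 0.17 (0.06 to 0.29), with an adjusted p of 0.0104 in the exact binomial test. All 3 were higher in replicate 2.

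Marco and Clec4f were lower in replicate 2 by the counts of the whole gene. Marco had 7970 counts in replicate 2 and 5979 in replicate 1, a log2 ratio of -0.26 (-0.31 to -0.21). Clec4f had 896 and 721 counts, at -0.36 (-0.51 to -0.22). Vsig4 had 32 and 31 counts, at -0.63 (-1.39 to 0.13), with an adjusted p of 0.177 in the exact binomial test, so its direction is not set at this depth.

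The members thus differed between the libraries in both directions, and the scavenger receptor Marco did not follow the other abundant members. The deposited credibility intervals of TPM did not overlap for 7 genes and overlapped for Clec4f and Vsig4. The share of all genes without overlap was not computed, so the 7 cannot be read as a trait of the set. With edgeR's negative binomial exact test, which takes the common dispersion of the pair as the error, 0 of the 9 genes were called, and 0 had an unadjusted p up to 0.05, while 2.64% of all genes were called. By that test no ratio of the 9 was shown to exceed the spread that genes have between these libraries.

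**Figure D4:**
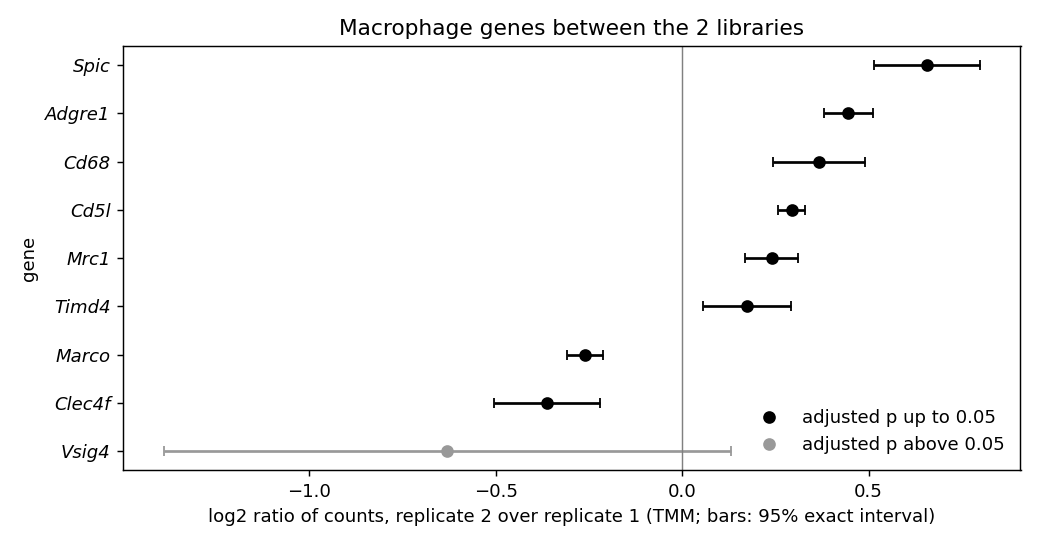
Log2 ratio of counts of each macrophage gene, replicate 2 over replicate 1, after TMM scaling, with exact 95% intervals for counting error. Spic, Adgre1, Cd68, Cd5l, Mrc1 and Timd4 lie above 0, Marco and Clec4f lie below it, and the interval of Vsig4 (grey) includes 0.

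The older mm9 tables of the same libraries set the same genes apart, but in opposite directions by column number. Relative to all annotated junction reads, the log2 ratio of column R2 over column R1 was 0.66 for Adgre1, 0.60 for Spic, 0.52 for Cd68, 0.49 for Cd5l, 0.45 for Mrc1 and 0.35 for Timd4. It was -0.15 for Clec4f, -0.17 for Marco and -0.48 for Vsig4. The ratio varied along Marco, with 1087 reads in R1 and 1814 in R2 on intron 1, but 684 and 718 on intron 6. Over all annotated junctions R2 held 1.45 times the reads of R1. Clec4f had 61 and 46 reads on intron 1, and 91 and 159 on intron 6. The whole-gene ratios of Marco and Clec4f thus do not hold for every intron. In the gene table, the log2 ratio of the columns RPKM2 over RPKM1 had a median of 0.38 over 8798 genes at 1 RPKM or more in both. Clec4f (0.78), Vsig4 (0.52) and Marco (0.51) lay above that median, and Mrc1 (0.25), Timd4 (0.10), Cd68 (0.10), Cd5l (0.05), Adgre1 (0.01) and Spic (-0.30) below it. Both tables thus set Marco and Clec4f apart from the 6 genes from Adgre1 to Timd4. Vsig4 lay on the side of Marco and Clec4f, but with 26 reads in R1 and 27 in R2 its direction is not set. Neither table is independent of the mm10 counts, since all come from the same libraries.

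Most of the other macrophage genes measured were higher in replicate 2. In a list of 20 further macrophage genes the median was 8.05 TPM in replicate 2, against 6.55 TPM in replicate 1. Its highest genes were the lysozyme gene Lyz2 (86.2 ± 19.3 TPM), the adaptor gene Tyrobp (63.2 ± 8.17 TPM) and the complement gene C1qb (55.4 ± 10.05 TPM), and its lowest was Cd14 (0.470 ± 0.0990 TPM). Of the 20, 16 were called higher in replicate 2, 0 lower and 4 did not pass, beside 19.9% of all genes called higher. These calls, and those of the lists below, are from the exact binomial test. Among all listed genes the negative binomial test called the scavenger receptor gene Scara3 alone (adjusted p 0.0029). The other list calls thus rest on counting error alone. The median log2 ratio was 0.24 in this list, as in the 9 genes, against -0.002 over all genes. In the lists of other cell types below it ranged from 0.04 for sinusoidal endothelial genes to 0.40 for neutrophil genes. Other cells may express genes of this list too, and their part in its ratios was not tested.

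The Kupffer cell list, 15 genes that mark the adult cell or its transcription factors, was split evenly between the directions. Its medians were 6.57 TPM in replicate 2, against 6.65 TPM in replicate 1, and 4 of its genes were called higher in replicate 2, 4 lower and 7 did not pass. Highest were the iron exporter gene Slc40a1 (45.6 ± 9.07 TPM) and the inhibitors of differentiation Id1 (39.9 ± 0.502 TPM) and Id3 (18.9 ± 2.38 TPM). The haptoglobin-hemoglobin receptor gene Cd163 was lowest, with 0.03 TPM in replicate 2, against 0.02 TPM in replicate 1. Of the 15 genes, 11 reached 1 TPM or more in both libraries. The other 4, named for these values, were Fabp7 (0.89 TPM in replicate 2, against 1.31 TPM in replicate 1), C6 (mean 0.445 TPM), Cd207 (0.170 TPM) and Cd163 (0.025 TPM). By mean level Cd207 and Cd163 stood below the 0.180 TPM of Vsig4 and the rest of the list above it. In whole tissue these levels need not be those of macrophages.

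Other uptake genes stood on either side of Marco, Mrc1 and Timd4 in level. Among 12 further scavenger receptors the medians were 6.28 TPM in replicate 2, against 5.02 TPM in replicate 1, with Scarb1 (44.5 ± 3.65 TPM), Stab1 (17.5 ± 1.54 TPM) and Lrp1 (16.6 ± 0.544 TPM) highest and Cd163 lowest. Marco, at 27.5 TPM, lay between Scarb1 and Stab1, and the scavenger receptor gene Msr1, a relative of Marco, had 3.96 ± 0.813 TPM. Of these 12 genes 4 were called higher in replicate 2, 3 lower and 5 did not pass.

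In a list of 12 genes for the uptake of dead cells or related to Timd4, the medians were 5.35 TPM in replicate 2, against 4.57 TPM in replicate 1. The bridging factor gene Mfge8 (38.8 ± 1.73 TPM), the Timd4 relative Timd2 (24.9 ± 5.04 TPM) and Lrp1 were highest. Havcr1, also a relative of Timd4, was lowest (0.0450 ± 0.0354 TPM). Timd4 had 4.26 TPM and lay just below the medians of the list. In this list 6 genes were called higher in replicate 2, 3 lower and 3 did not pass.

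The iron recycling genes had the highest medians of the 8 lists on macrophage function, and red cells and hepatocytes express many of them as well. Their medians were 43.0 TPM in replicate 2, against 33.3 TPM in replicate 1, with Fth1 (1577 ± 156 TPM), Ftl1 (1460 ± 282 TPM) and Blvrb (599 ± 2.51 TPM) highest and Cd163 lowest. Fth1 and Ftl1 have near-identical pseudogene copies, so their counts are uncertain. Hmox1, the heme oxygenase gene, had 86.3 TPM in replicate 2, against 57.1 TPM in replicate 1, at a log2 ratio of 0.45 (0.42 to 0.49). Of the 10 genes 8 were called higher in replicate 2, 1 lower and 1 did not pass. Spic, which acts on the iron exporter gene Slc40a1 in splenic macrophages, was higher in the same library. A link between Spic and the iron genes was not tested.

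The island adhesion list holds 9 genes of the erythroblastic island, among them Epor, which is not an adhesion gene. Epor (116 ± 12.8 TPM), Icam4 (46.4 ± 5.18 TPM) and Itgb1 (44.1 ± 1.16 TPM) were highest. In whole tissue these levels need not be those of macrophages. Siglec1, a sialic acid receptor of island macrophages, was lowest at 0.880 ± 0.255 TPM. The medians were 23.6 TPM in replicate 2, against 21.9 TPM in replicate 1, which are those of Vcam1, the receptor by which macrophages hold erythroblasts. In this list 5 genes were called higher in replicate 2, 2 lower and 2 did not pass.

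Of the factors that act upstream of the set, Spi1, which encodes PU.1, had 17.6 ± 2.86 TPM, above Spic in both libraries. The 14 regulators showed medians of 5.95 TPM in replicate 2, against 4.84 TPM in replicate 1, with Id3, Spi1 and Cebpb (14.2 ± 2.55 TPM) highest and Mitf (0.300 ± 0.0141 TPM) lowest. Nr1h3, which encodes the oxysterol receptor that acts on the Cd5l gene, had 13.5 ± 1.37 TPM, and Bach1, the heme sensor that represses Spic, had 5.85 ± 0.742 TPM. Of the 14 genes 10 were called higher in replicate 2, 1 lower (Zeb2, at -0.22) and 3 did not pass.

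The growth factor receptor Csf1r, on which macrophages depend, had 11.9 TPM in replicate 2, against 8.16 TPM in replicate 1. Its ligand gene Csf1 had 4.27 ± 0.0354 TPM, and Il34, the gene of its other ligand, had 3 and 5 counts. Csf2ra (8.93 ± 1.31 TPM) stood second in this list of 8, and Csf3 was at 0 counts in each library, with an upper limit of 3 counts in each. Of the 5 genes tested 4 were called higher in replicate 2 and 1, Csf1, lower.

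Genes of other blood cells were also called between the libraries, and their part in the ratios of the 9 genes was not tested. For these and all other lists, the shares over all genes were 19.9% called higher in replicate 2 and 20.4% lower. Of genes with at least 100 counts 47% were called in either direction. Genes with many counts were called at small ratios, such as the erythroid gene Tfrc at a log2 ratio of 0.019. Of 10 neutrophil genes, led by S100a8, 9 were called higher in replicate 2 and 0 lower, with summed levels of 1920 TPM in replicate 2, against 1313 TPM in replicate 1. Of 10 monocyte genes, led by Fn1, which hepatocytes also make, 7 were called higher in replicate 2 and 2 lower, with sums of 241 and 201 TPM. All 10 erythroid genes, led by Car2, were called higher in replicate 2, at a median log2 ratio of 0.11, with sums of 4263 and 3703 TPM.

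Sinusoidal endothelial cells share Mrc1 with macrophages. Of 10 sinusoidal endothelial genes, led by Oit3, 4 were called higher in replicate 2 and 2 lower, with sums of 81.5 and 71.9 TPM and a median log2 ratio of 0.04. Eosinophils also carry Adgre1 in the mouse. Of 5 eosinophil genes, led by Prg2, 3 were called higher in replicate 2 and 0 lower, with sums of 79.3 and 63.2 TPM, and Ccr3 and Il5ra lay at 0.04 TPM or less in both libraries. Of 8 B lymphoid genes, led by Cd79b, 2 were called higher in replicate 2 and 0 lower, with sums of 8.42 and 6.08 TPM, and of 10 fetal hepatocyte genes, led by Alb, 8 were called higher and 2 lower. No defining gene of these lists had 0 counts in both libraries.

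**Figure D5:**
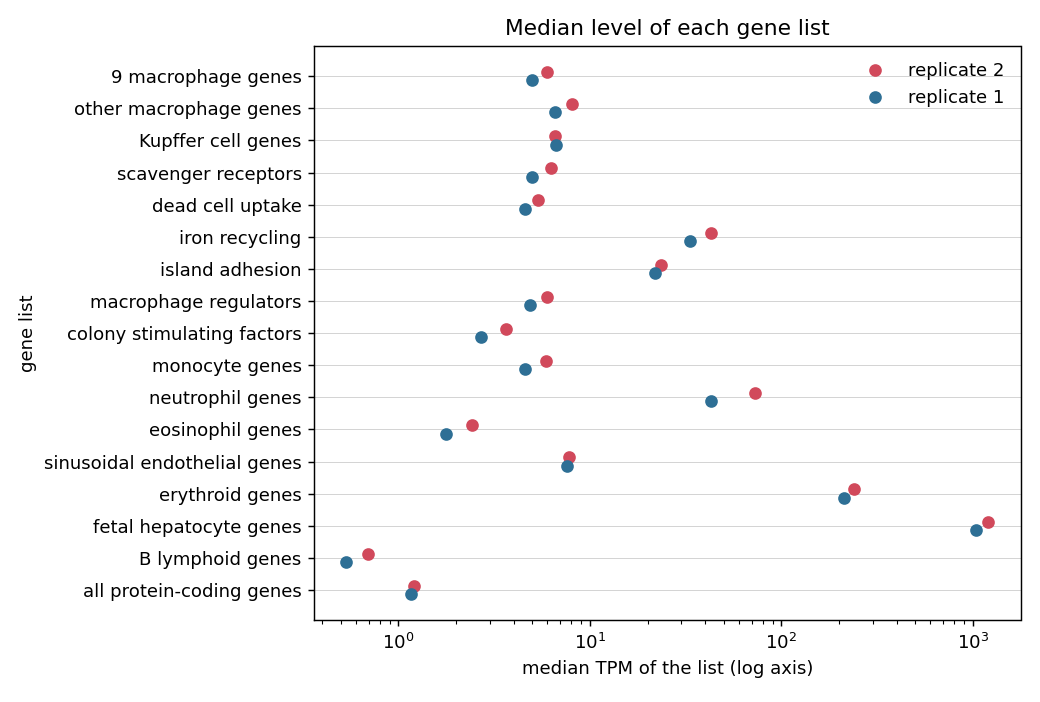
Median TPM (log axis) of the 9 macrophage genes, of 15 gene lists and of all protein-coding genes in replicate 2 (red) and replicate 1 (blue). The 9 macrophage genes, at 6.00 and 5.00 TPM, lie in the range of 6 of the 8 lists on macrophage function (2.69 to 8.05 TPM), below the island adhesion, iron recycling, neutrophil, erythroid and hepatocyte lists and above the median of all protein-coding genes at 1.20 and 1.17 TPM.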

How the data were processed

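RNA of the 2 libraries was sequenced as polyadenylated RNA, per the labels. The expected count, TPM and FPKM values per gene and transcript were made by the authors on mm10 with the GENCODE M4 annotation, with spike-ins in the TPM total. Which aligner and which quantifier they used is not given in the sources at hand. The transcript share in percent and the posterior SD of each count (a score column) were deposited beside them. On mm9 with ENSEMBL genes, the authors deposited RPKM per gene, the read count over each junction and a contig signal, each with columns or totals not tied to a labelled replicate.

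Counts were rounded for the tests. Symbols were matched by identifier to GENCODE M21 for 42462 of 43346 genes. Scaling was TMM (edgeR 4.0.16), with DESeq2 1.42.0 size factors, library totals or TPM as alternatives. Ratios carry exact 95% intervals. On simulated data the binomial test called few unchanged genes where libraries differed by counting error alone. It called many where they also differed by a spread between replicates, so its calls do not stand for differences beyond that spread. The simulated spread was a coefficient of variation of 0.1, below the 0.187 estimated from these libraries. Intervals and upper limits of 3 counts cover counting error only. A share of skipped exons is the skipping reads over these plus the mean of both flanking introns. Promoter windows and junction sequences come from RefSeq and GENCODE M21. The 9 genes and all gene lists were chosen with earlier results of these data known. Named beside the 9 are the 3 highest genes and the lowest of each list (for lists of other cell types the highest alone) and genes that a result on the 9 turns on. Some genes stand in more than 1 list. Tables were handled with pandas 2.3.3 and numpy 2.4.6, tests run with scipy 1.17.1 and plots drawn with matplotlib 3.10.9, under Python 3.11.15 and R 4.3.3.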

Additional observations from a re-analysis of the deposited data

How the results depend on the processing

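The median level of the 9 genes, 5.50 TPM, was 12.1 TPM over nuclear genes without spike-ins and adult globins, 1.53 RPKM in the mm9 table, which has another scale, and 4.26 TPM with coding transcripts alone, a measure chosen after seeing the data. Cd5l was highest and Vsig4 lowest in all 8 settings. In the mm9 table Adgre1 stood above Marco. As a list level, the value was 6.94 TPM as the mean of log2(TPM + 1) and 7.01 TPM over genes at 1 TPM or more. Without a replicate it ranged from 5.00 to 6.00 TPM. At 5 TPM 5 genes passed in both libraries, against 8 at 1 TPM. The count of 8 called genes became 7 at an adjusted p of 0.01 (Timd4 lost) and 0 with the negative binomial test. It stayed at 8 with both other scalings and both other filters. The highest transcript's median share ranged from 95.02% to 95.52% without a replicate. Of 101 introns 97 had at least 10 reads, the other 4 in Vsig4. Ratios cannot be made without either library. No paired analysis was possible because the labels give 1 group only. Depth limits the ratio of Vsig4, which rests on 32 and 31 counts.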
